A study of Rattus norvegicus with 17 samples.

Results

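A set of 10 genes of bile acid sensing and transport were followed in rat colon mucosa under diets of high and of low calcium content. They are the nuclear receptors Nr1h4, Nr0b2, Nr1i2 and Nr1i3, the uptake carrier Slc10a2, the binding protein Fabp6, the hormone gene Fgf15, and the exporters Abcb1a, Abcc2 and Abcc3. They were chosen by name, because calcium in the diet binds bile acids in the gut, and matched to the names that the scanner files give. The 10 genes had 12 probes among 41012. Of these, 9 probes for 8 genes were tested, among 27083 probes tested in all, because they lay well above background in the rats' channel on at least 8 arrays.

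All rats were females of the inbred Fisher 344 strain, 8 to 10 weeks old at the start, and all carried the HLA-B27 and β2-microglobulin transgenes. Rats with these human transgenes develop colitis, and the series asks how calcium in the diet affects it. The 8 rats of the high calcium group ate 120 mmol calcium per kg of a purified Western diet, and the 9 rats of the low calcium group ate 30 mmol per kg, with glucose in place of the added calcium. Rats without the transgenes were not analysed here, and neither the time on the diets nor what drives the transgenes is given in the sources used here. Each rat's RNA, from scrapings of the mucosa, was labelled with Cy5 and hybridised to its own array beside a Cy3 pool of all rats, so each value is the log2 ratio of a rat to that pool. Scrapings hold several cell types, and in such bulk tissue fewer cells of a type and less RNA per cell cannot be told apart.

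Bile acids that reach the end of the small intestine enter its cells through the sodium-dependent carrier encoded by Slc10a2, cross them bound to the protein of Fabp6, and leave on the blood side through the organic solute transporter, a pair of subunits encoded by Slc51a and Slc51b. Inside the cell they activate the farnesoid X receptor (FXR, Nr1h4), which switches on Fabp6, Slc51a, Slc51b, Fgf15 and the repressor SHP (Nr0b2); FGF15 then travels to the liver and lowers bile acid synthesis. Bile acids that escape uptake reach the colon, where bacteria convert them to secondary bile acids, among them ligands of the pregnane X receptor (PXR, Nr1i2), a regulator of detoxifying enzymes and exporters.

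Promoters are shown for Slc10a2 and Fabp6, whose values varied together between rats. They are the 250 bases before the start of each gene on its own strand, 5′ to 3′, from RefSeq on GRCr8, chr16:91087839-91088088 (plus strand) for Slc10a2 and chr10:28569728-28569977 (minus strand) for Fabp6; capitals mark matches to the motifs named next.
Slc10a2: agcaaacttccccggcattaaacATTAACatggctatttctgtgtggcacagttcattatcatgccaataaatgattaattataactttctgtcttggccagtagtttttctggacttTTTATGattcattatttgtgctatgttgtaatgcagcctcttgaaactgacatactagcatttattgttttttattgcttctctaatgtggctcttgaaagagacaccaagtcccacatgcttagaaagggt
Fabp6: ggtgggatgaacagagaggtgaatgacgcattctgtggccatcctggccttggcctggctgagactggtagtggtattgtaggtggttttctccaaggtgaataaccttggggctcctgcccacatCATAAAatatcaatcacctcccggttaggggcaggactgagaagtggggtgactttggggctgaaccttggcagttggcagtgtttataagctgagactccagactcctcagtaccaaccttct

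RefSeq promoters were at hand for 7 of the 10 genes, and 4 motifs were searched on both strands. The letters TTTATG, a site of the intestinal CDX factors, lay on the plus strand of the Slc10a2 promoter from -132 to -127 before the start, and on the minus strand of the Fabp6 promoter (as CATAAA) from -124 to -119. They occur in 11.4% of 33469 promoters of this length. The HNF1 half-site GTTAAT was found in the Slc10a2 promoter from -227 to -222 on the minus strand (as ATTAAC) and in the Abcc2 promoter, and 6.45% of promoters hold it. The nuclear receptor half-site AGGTCA occurred in 1 of the 7 promoters, that of Abcc2, once on each strand, against 14.1% of all promoters. The inverted repeat of that half-site with 1 base between its arms, bound by FXR, was searched in its exact letters only. In that form it was in none of the 7 windows and in 0.0269% of all promoters. Forms with changed letters were not searched, so whether a window holds an FXR site cannot be told from this. The Fabp6 window printed above holds such a repeat with 1 letter changed in each arm, and the other windows were not read for these forms. Motif matches describe letters in these windows and are no evidence of binding.

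The arrays were alike in quality: 60.0% to 71.9% of probes on each array passed the scanner's test for Cy5 signal well above background, and at most 3 spots were saturated. Slides 1 to 4 held 2 rats of each diet, and slide 5 held low calcium rat 1 alone. All 12 colon epithelial markers were well above background, from the transcription factor Cdx2 to the mucin Muc2. Of the 7 liver markers 1 was tested, Serpina1, well above background on 16 arrays; Alb, Tat and Cps1 were so on none, Ttr on 5, and Apoh and Fgb on 1 each. Of the small intestinal markers Lct, Mttp and Gata4 were not well above background on any array either, and 8 of the 12 matched markers were tested. No probe passed limma's adjusted p of 0.05 over all probes, which is 0.0% of 27083; the smallest adjusted p was 0.098. At an unadjusted p under 0.05, 2381 probes passed, which is 8.79%. Leaving out high calcium rat 3 gave 193 probes past the adjusted p, and leaving out low calcium rat 16 gave 38. The number of rats limits the precision.

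Among the bile acid genes 0 of the 9 tested probes passed the adjusted p, and 1 passed the unadjusted p, an Abcc3 probe, against the 8.79% of all probes. The count at the unadjusted p ran from 0 to 2 under the other settings tried. Differences, high minus low calcium, were above 0 for 7 of the 9 probes, against 53.9% of all probes tested. Their median was 0.03, against 0.01 over all probes tested. The median standard error (SE) was 0.079 for the 9 probes and 0.057 over all probes. The plot of diet differences shows each gene with its interval.

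**Figure D1:**
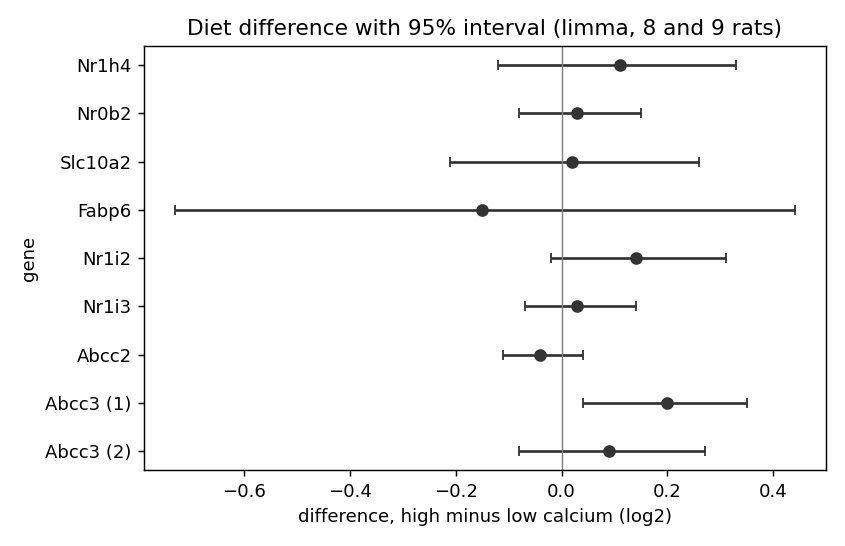
Difference in log2 ratio, high minus low calcium, for the 9 tested probes of the bile acid genes (points, with 95% intervals from limma over 8 and 9 rats; Abcc3 has 2 probes, A_42_P572725 as 1 and A_44_P221974 as 2). The interval excludes 0 for Abcc3 probe 1 alone (0.04 to 0.35), and that of Fabp6, from -0.73 to 0.44, is the widest.

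Of the receptors, Nr1h4, which encodes FXR, was read by 1 probe at chr7:26255678-26255737 (rn3 coordinates, per the file headers, as for all probes here; whether a probe lies in an exon or a UTR was not analysed here). Its log2 ratio ran from -0.41 to 0.43 in the high calcium rats, with a median of 0.09, and from -0.61 to 0.20 in the low calcium rats, with a median of -0.03. The groups overlapped over most of this range; high calcium rat 18 was highest and low calcium rat 6 lowest. The probe was well above background in all 17 rats, with a Cy5 signal over background of 325 to 930. The diets differed by 0.11 ± 0.11 (SE, n = 8 and 9; 95% interval -0.12 to 0.33), which did not pass (limma p = 0.34, adjusted p = 0.83; exact permutation p = 0.41, two-sided). It was 0.04 without low calcium rat 6, 0.05 without high calcium rat 18 and 0.17 without high calcium rat 3.

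Nr0b2 encodes SHP, the repressor that FXR induces. Its probe at chr5:151534761-151534820 gave log2 ratios of -0.23 to 0.10, median -0.06, with high calcium and of -0.30 to 0.09, median -0.06, with low calcium. The groups lay on top of each other. The difference of 0.03 ± 0.06 (95% interval -0.08 to 0.15) did not pass (limma p = 0.55, adjusted p = 0.90; exact permutation p = 0.56). Its sign turned with array weights (-0.01) and in the Cy5 channel alone (-0.00).

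Nr1i2, which encodes PXR, was read at chr11:64333649-64333708 with a signal over background of 3820 to 7540. Its log2 ratio was -0.30 to 0.20, median 0.02, with high calcium and -0.45 to 0.08, median -0.19, with low calcium. The groups overlapped: 3 of the 8 high calcium rats lay above every low calcium rat, and 6 lay above the low calcium mean. The difference was 0.14 ± 0.08 (95% interval -0.02 to 0.31) and did not pass (limma p = 0.085, adjusted p = 0.65; exact permutation p = 0.12). Within slides 1 to 4, each with 2 rats of each diet, it was 0.24, 0.32, -0.10 and -0.03, so its sign was not shared by all slides. Over the other settings it ran from 0.11 to 0.21, with an adjusted p of 0.29 to 1.0 in limma. The unadjusted limma p ran from 0.017 to 0.44, so it was under 0.05 in some settings and above it in others.

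Nr1i3 encodes the constitutive androstane receptor (CAR), the liver partner of PXR in drug metabolism. It had 2 probes. The probe A_43_P12344, whose stated positions span 151 bases (chr13:87295925-87296075), was well above background in 7 of 8 high and 6 of 9 low calcium rats, with a signal over background of 35.1 to 86.1. Its log2 ratios ran from -0.20 to 0.11, median -0.06, and from -0.25 to 0.01, median -0.09, in the high and low calcium rats. The difference of 0.03 ± 0.05 did not pass (limma p = 0.51, adjusted p = 0.90; exact permutation p = 0.49). The other probe, A_44_P316002 (chr13:87296045-87296104), was not well above background in any of the 17 rats.

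**Figure D2:**
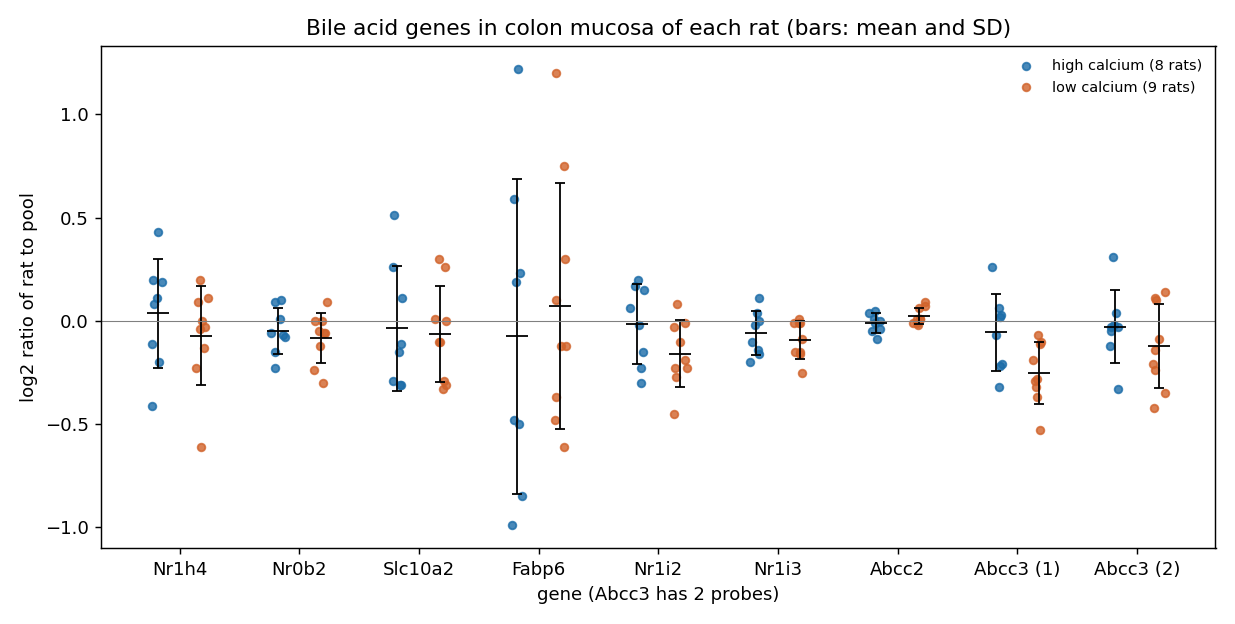
Log2 ratio of each rat to the pool for the 9 tested probes of the bile acid genes (points are rats, 8 high and 9 low calcium; horizontal bars are means and error bars SD; Abcc3 (1) is probe A_42_P572725 and Abcc3 (2) probe A_44_P221974). The diets overlapped for every probe, and Fabp6 spread most, from -0.99 to 1.22.

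The uptake and binding genes spread widely between rats, and no difference between the diets was detected for them. Slc10a2, the apical uptake carrier, was dim but well above background in all 17 rats, with a signal over background of 48.1 to 157 (chr16:89948456-89948515). Its log2 ratio ran from -0.31 to 0.51, median -0.13, with high calcium and from -0.33 to 0.30, median -0.10, with low calcium. Both groups had rats below and above 0, with somewhat more below it. The difference of 0.02 ± 0.11 (95% interval -0.21 to 0.26) did not pass (limma p = 0.83, adjusted p = 0.97; exact permutation p = 0.85), and its sign turned in 7 of the 27 other settings.

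Fabp6, which carries bile acids across the cell, varied more between rats than any other gene here. Its signal over background was 812 to 4000, median 1480, with high calcium and 944 to 4950, median 1580, with low calcium, a range of 6.09-fold over the 17 rats. Its log2 ratio ran from -0.99 to 1.22, median -0.15, in the high calcium rats and from -0.61 to 1.20, median -0.12, in the low calcium rats. High calcium rat 17 (1.22) and low calcium rat 4 (1.20) were the highest, and high calcium rats 3 (-0.99) and 13 (-0.85) the lowest, so the most extreme rats were of both diets. The SD left after the diet means were removed was 0.68, larger than that of 99.9% of the tested probes, whose median was 0.12. For Slc10a2 it was 0.27, larger than that of 96.9%, and for Nr1h4 0.25, larger than that of 96.1%. The diet difference of Fabp6 was -0.15 ± 0.28 (95% interval -0.73 to 0.44), far within this spread (limma p = 0.61, adjusted p = 0.92; exact permutation p = 0.66). By slide it was -1.1, 0.34, -0.54 and 0.50. With each rat left out in turn it ran from -0.33 (without high calcium rat 17) to -0.01 (without high calcium rat 3 or low calcium rat 4). The positions given for this probe span 935 bases, chr10:28695902-28696836.

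Fgf15, the hormone gene that FXR induces in the ileum, was not well above background in any of the 17 rats. Its signal over background was 10.4 to 33.6 (chr1:205481550-205481609). It was therefore not tested, and no fold is given, since neither diet brought it above background.

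The exporters were Abcc3, Abcc2 and Abcb1a. Abcc3 encodes MRP3, which exports bile acids and conjugates on the blood side of the cell, and it had 2 probes. The probe A_42_P572725 (chr10:83001283-83001342; signal over background 3140 to 5280) gave log2 ratios of -0.32 to 0.26, median -0.02, with high calcium and of -0.53 to -0.07, median -0.28, with low calcium. The groups overlapped, with 5 of 8 high calcium rats above every low calcium rat and 7 of 8 above the low calcium mean. The difference was 0.20 ± 0.08 (95% interval 0.04 to 0.35), or 1.15-fold, with an unadjusted limma p of 0.017 and an adjusted p of 0.44, so that it did not pass over all probes. The exact permutation p of this probe alone was 0.030. Within slides 1 to 4 the difference was 0.09, 0.34, 0.03 and 0.27, above 0 on each.

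The probe A_44_P221974 of Abcc3 (chr10:83001517-83001576) ran from -0.33 to 0.31, median -0.03, with high calcium and from -0.42 to 0.14, median -0.14, with low calcium. The groups overlapped more than for the other probe. Its difference of 0.09 ± 0.08 did not pass (limma p = 0.29, adjusted p = 0.80; exact permutation p = 0.34), and by slide it was 0.04, 0.20, -0.09 and 0.11. The probes thus gave the same sign and different sizes. Over the other settings the difference ran from 0.15 to 0.27 for A_42_P572725 and from 0.04 to 0.19 for A_44_P221974, with adjusted p of 0.17 to 1.0 and 0.51 to 1.0 in limma.

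Abcc2 encodes MRP2, which exports conjugates into the lumen. Its probe (chr1_random:3595866-3595925) was printed in 10 spots and was dim, with a signal over background of 55.2 to 90.1, well above background in all 17 rats. The log2 ratio was -0.09 to 0.05, median -0.01, with high calcium and -0.02 to 0.09, median 0.01, with low calcium. The groups overlapped, with 3 high calcium rats below every low calcium rat. The difference of -0.04 ± 0.03 (95% interval -0.11 to 0.04) did not pass (limma p = 0.31, adjusted p = 0.81; exact permutation p = 0.11), and it was 0.04 in the deposited series matrix. Single spots of this probe differed within an array by a median SD of 0.11; the rats' values, each a mean over the spots, had an SD of 0.05.

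Abcb1a, which encodes a P-glycoprotein that returns drugs and other foreign compounds to the lumen, was well above background in 0 of 8 high and 2 of 9 low calcium rats and was not tested (chr4:21795859-21795918). Its signal over background was 19.1 to 31.7 with high calcium and at most 59.6 with low calcium. In low calcium rat 11 the local background exceeded the spot, giving a signal of -49100. No fold is given. With rat 11 included, the low calcium mean of normalised log2 Cy5 was 6.72. The level that background allows for the high calcium group was also 6.72, so the low calcium mean did not exceed it. This rests on rat 11, whose value was 5.60, against 6.66 to 7.15 in the other low calcium rats. Low calcium rats 1, 4, 5, 6, 15 and 16 lay above 6.72, and rats 7 and 8 below it. A mean without rat 11 was not computed.

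Relations between the genes were computed over 17 rats for the 7 genes well above background on all arrays, after each diet's mean had been removed, as 21 pairs. Values of 1 array share its labelling, its pool and its normalisation. Slc10a2 and Fabp6, the uptake carrier and the binding protein, varied together: Pearson's r was 0.74 (permutation p = 0.0008, adjusted over the 21 pairs 0.017) and Spearman's rho 0.64 (p = 0.0072, adjusted 0.051). The relation was 0.79 within the high calcium rats (exact permutation p = 0.020) and 0.68 within the low calcium rats (exact permutation p = 0.046). Without the 2 rats farthest from the median of Slc10a2 it was 0.79, and with slide removed as well as diet, over the 16 rats of slides 1 to 4, it was 0.64 (exact permutation p = 0.027, reordering rats within slides). Low calcium rat 4 and high calcium rat 17, the rats with most Fabp6, both had a Slc10a2 log2 ratio of 0.26.

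**Figure D3:**
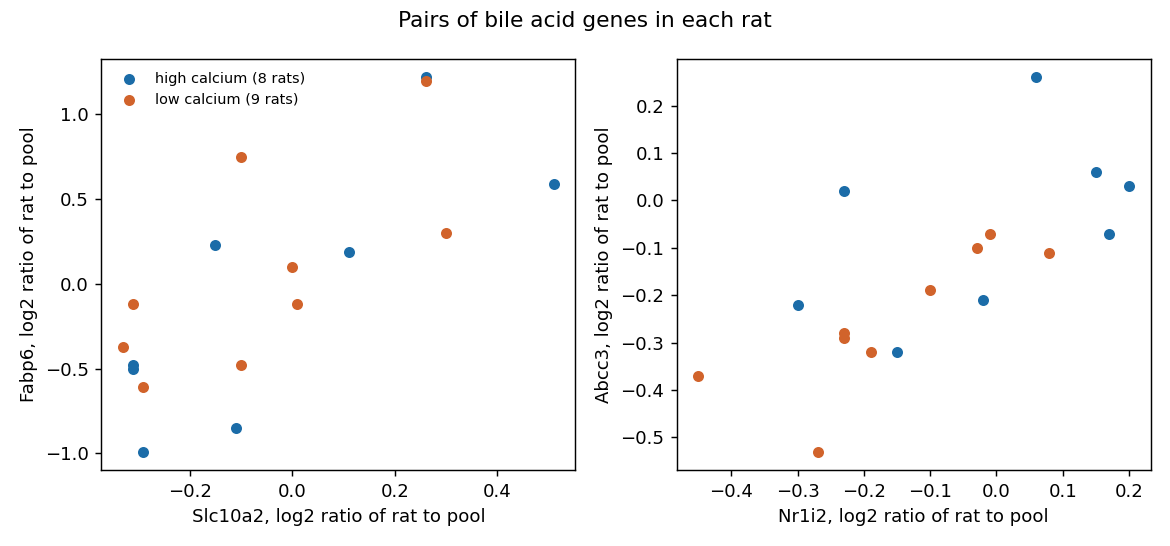
Log2 ratio to the pool of Fabp6 against Slc10a2 (left) and of Abcc3, probe A_42_P572725, against Nr1i2 (right); each point is a rat, 8 high and 9 low calcium. After removal of the diet means r was 0.74 on the left and 0.64 on the right.

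Nr1i2 and Abcc3, the PXR gene and the exporter on the blood side, gave an r of 0.64 (permutation p = 0.0062, adjusted 0.065) and a rho of 0.69 (p = 0.0029, adjusted 0.049). Within the low calcium rats r was 0.82 (exact permutation p = 0.0075), and within the high calcium rats it was 0.50 (exact permutation p = 0.20); the difference between diets was not tested. Without the 2 rats farthest from the median of Nr1i2 it was 0.59, and with slide removed 0.79 (exact permutation p = 0.0014). Nr1h4 and Abcc3 gave an r of 0.59 (permutation p = 0.013, adjusted 0.088) and a rho of 0.66 (p = 0.0047, adjusted 0.049), which fell to 0.49 in r with slide removed (exact permutation p = 0.097). Without the 2 rats farthest from the median of Nr1h4 this r was 0.53. By r 1 of the 21 pairs passed the adjusted threshold, Slc10a2 with Fabp6. By rho that pair did not pass (adjusted permutation p = 0.051), while Nr1i2 with Abcc3 and Nr1h4 with Abcc3 did (0.049 each). Which pairs passed thus depended on the statistic.

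FXR's gene and the genes it is known to induce were not all related. With Nr0b2 the r of Nr1h4 was 0.03 (permutation p = 0.91), and without the 2 farthest rats -0.20. With Fabp6 it was 0.40 (permutation p = 0.11, adjusted 0.31), and without the 2 farthest rats 0.10.

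The subunits of the organic solute transporter are on the list of other bile acid genes and were set against the 7 genes after their values had been seen, together with 6 marker lists, as 56 relations, of which 8 had an adjusted p under 0.05. Slc51a ran from -0.66 to 0.97, median 0.04, with high calcium and from -0.86 to 0.31, median -0.09, with low calcium, and its diet difference of 0.17 ± 0.18 did not pass (limma adjusted p = 0.83). Slc51b ran from -0.70 to 0.79, median 0.21, and from -0.63 to 0.37, median -0.05, with a difference of 0.21 ± 0.16 that did not pass (limma adjusted p = 0.76). Both subunits followed Nr1h4 from rat to rat. Other genes did so more closely, with an r of 0.94 for Mpst, 0.93 for Slc27a4 and 0.93 for Pkig. How many of the 13505 probes searched reach the r of the subunits was not counted. The r of Nr1h4 with Slc51a was 0.87 (permutation p = 1e-05, the smallest that 100000 resamples can give; adjusted 0.00056) and rho was 0.75 (p = 0.00078, adjusted 0.011). With Slc51b r was 0.87 (permutation p = 2e-05, adjusted 0.00056) and rho 0.83 (p = 6e-05, adjusted 0.0034).

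Both relations of Nr1h4 were seen in each diet. With Slc51a r was 0.94 in the high calcium rats (exact permutation p = 0.00077) and 0.79 in the low calcium rats (exact permutation p = 0.023). With Slc51b it was 0.93 (exact permutation p = 0.0014) and 0.82 (exact permutation p = 0.012). Without the 2 rats farthest from the median of each subunit r was 0.79 and 0.79, and with slide removed 0.88 (exact permutation p = 0.00052) and 0.86 (exact permutation p = 0.00025). High calcium rat 18 was highest in Nr1h4, Slc51a and Slc51b, and low calcium rat 6 and high calcium rat 3 were lowest.

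**Figure D4:**
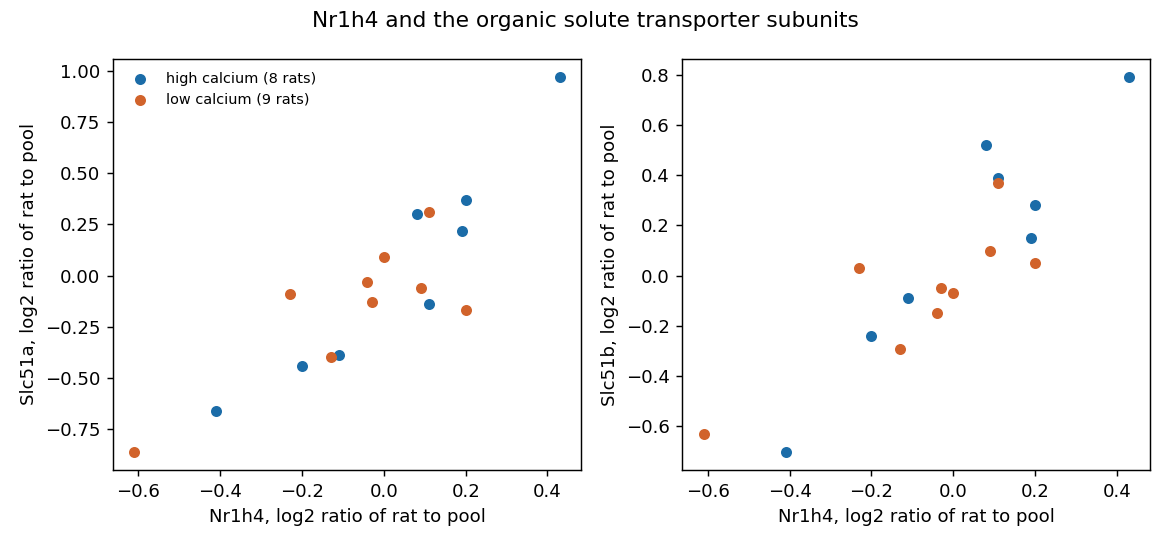
Log2 ratio to the pool of Slc51a (left) and Slc51b (right), the organic solute transporter subunits, against Nr1h4, the gene of FXR; each point is a rat, 8 high and 9 low calcium. High calcium rat 18 is at the top right of both panels, and after removal of the diet means r was 0.87 in each.

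The level of epithelial markers moved with Nr1h4 as well. The mean of the 12 colon epithelial markers gave an r of 0.83 with Nr1h4 (permutation p = 6e-05, adjusted 0.00084; rho 0.78, p = 0.00034, adjusted 0.0063), 0.70 without the 2 farthest rats and 0.86 with slide removed (exact permutation p = 0.0002). Within the high calcium rats r was 0.89 (exact permutation p = 0.0046) and within the low calcium rats 0.80 (exact permutation p = 0.007). Levels of marker lists are given as the sum of normalised Cy5 intensities (loess, then quantile normalisation of the arrays' mean intensities), a scale other than the signal over background of single probes. On it the 12 epithelial markers summed to 662000 to 740000 with high and 583000 to 748000 with low calcium. Of the 12, 2 were higher with high calcium at an unadjusted limma p under 0.05, Muc2 and Car2, against 3.95% of all probes tested, and none lower. The small intestinal list gave an r of 0.83 with Nr1h4 (permutation p = 4e-05, adjusted 0.00075; rho 0.81, p = 0.00022, adjusted 0.0062; 0.74 without the 2 farthest rats); within the diets r was 0.95 in the high calcium rats (exact permutation p = 0.0006) and 0.67 in the low calcium rats (exact permutation p = 0.05). The summed normalised intensity of this list was 12600 to 36000 with high and 12200 to 26400 with low calcium, and its members Fabp1 and Fabp2 are also made in colon. Fabp1 varied most among its tested members, with an SD of 0.76 with high and 0.57 with low calcium. For Fabp2, the next, the SD was 0.25 and 0.21. Fabp1 thus weighs most in the mean of this list, and no relation with the list was computed without it. For Slc10a2 and Fabp6 the r with this list was 0.53 (permutation p = 0.028, adjusted 0.077) and 0.57 (permutation p = 0.018, adjusted 0.075), and 0.50 and 0.39 without the 2 farthest rats. The part of the share of epithelial cells in these relations was not tested.

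Abcc3 ran against the connective tissue markers. Its r was -0.63 with the 6 fibroblast markers (permutation p = 0.0063, adjusted 0.044; rho -0.54, p = 0.027, adjusted 0.099), and without the 2 farthest rats -0.34. Within the high calcium rats it was -0.93 (exact permutation p = 0.00067) and within the low calcium rats -0.18 (exact permutation p = 0.63), a difference between diets that was not tested. With the smooth muscle markers the r of Abcc3 was -0.65 (permutation p = 0.0045, adjusted 0.036; rho -0.63, p = 0.007, adjusted 0.056), and -0.50 without the 2 farthest rats. It was -0.94 within the high calcium rats (exact permutation p = 0.00077) and -0.19 within the low calcium rats (exact permutation p = 0.64). Nr1h4 gave an r of -0.70 with the endothelial markers (permutation p = 0.0016, adjusted 0.018; rho -0.74, p = 0.0011, adjusted 0.012), and -0.48 without the 2 farthest rats. Within the high calcium rats it was -0.93 (exact permutation p = 0.0015) and within the low calcium rats -0.41 (exact permutation p = 0.28). The differences of these relations between diets were not tested. The remaining relation past the adjusted threshold was that of Abcc2 with the small intestinal list, at 0.66 (permutation p = 0.0044, adjusted 0.036; rho 0.73, p = 0.0013, adjusted 0.012; 0.60 without the 2 farthest rats). It was 0.74 within the high calcium rats (exact permutation p = 0.038) and 0.55 within the low calcium rats (exact permutation p = 0.13). Abcc2 was dim, with a signal over background of 55.2 to 90.1, and its values had an SD between rats of only 0.05. All 6 fibroblast markers were lower with high calcium at an unadjusted limma p under 0.05, against 4.84% of all probes tested, with a median difference of -0.51 and a summed normalised intensity of 10500 to 22300 against 16600 to 28100; none passed the adjusted p. Of the 8 tested leukocyte markers 2 were lower at the unadjusted p, the macrophage marker Cd68 (-0.35 ± 0.10) and the integrin gene Itgam (-0.26 ± 0.07), and the list had a median difference of -0.08 and a summed normalised intensity of 11900 to 15300 against 13700 to 16400. For smooth muscle the sums were 9780 to 13200 against 9760 to 14100, and for endothelium 3110 to 4460 against 3210 to 4490. At the unadjusted p 1 of 5 tested smooth muscle markers was lower, Tagln (-0.31 ± 0.14), and 0 higher. Of 4 tested endothelial markers 1 was lower, Vwf (-0.28 ± 0.08), and 0 higher. By median signal over background the brightest markers were Actg2 (15700) in smooth muscle, Kdr (3950) in endothelium and Cd3g (17500) in leukocytes. These genes weigh most in their sums. The part of these cell types in the difference of Abcc3 between diets was not tested.

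Genes whose pattern was most like each bile acid gene were named from 13505 probes by Pearson's r over the 17 rats with diet means removed, as a description. For Nr1h4 they were Mpst (r = 0.94), Slc27a4 (0.93) and Pkig (0.93). For Nr1i2 they were Naip6 (0.92), Lpin3 (0.91) and Phf1 (0.91), and for Abcc3 Unc5b (0.91), Chmp4c (0.90) and Prrg2 (0.90). Nr0b2 was most like Thoc7 (0.91), Mrps14 (0.86) and Mrpl18 (0.86). The nearest patterns to Fabp6 were less close, Rsbn1 (0.77), Lgals2 (0.76) and Ugt1a2 (0.74), as were those to Slc10a2, Nxf7 (0.80), Or13c7e (0.80) and Tamalin (0.79). Abcc2 was most like Pgr (0.83), Or2t48 (0.78) and Tbc1d25 (0.78).

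Of 68 other genes of bile acid transport, sensing, synthesis and detoxification, 65 had a probe and 46 were tested. None of the 46 passed the adjusted p in limma. At an unadjusted p under 0.05, 5 were higher and 4 lower with high calcium, against 3.95% and 4.84% of all probes tested, and the median difference was 0.04. Of the 12 tested transporters 1 was higher and 1 lower: Slco2b1, an organic anion uptake carrier, differed by 0.22 ± 0.10 (limma adjusted p = 0.52), and Abcg5, a sterol exporter, by -0.23 ± 0.09 (limma adjusted p = 0.43). Of the 15 tested receptors and partners Ncoa1, a coactivator of nuclear receptors, differed by 0.13 ± 0.05 (limma adjusted p = 0.41) and S1pr2, a membrane receptor for conjugated bile acids, by -0.13 ± 0.06 (limma adjusted p = 0.53). Cyp7b1, an oxysterol hydroxylase of the alternative synthesis pathway, differed by -0.18 ± 0.08 (limma adjusted p = 0.48).

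A further list held genes of bile acid detoxification and targets of PXR and CAR. Among its 13 tested genes 3 were higher and 1 lower at the unadjusted p. Whether each of them is a target of these receptors was not tested. Over all probes tested the shares were 3.95% and 4.84%. Cyp3a18 differed by 0.26 ± 0.10 (limma adjusted p = 0.44), Cyp2b12 by 0.14 ± 0.04 (limma adjusted p = 0.20) and Cyp2b2 by 0.14 ± 0.04 (limma adjusted p = 0.32). Gsta2, a glutathione transferase, differed by -0.41 ± 0.12 (limma adjusted p = 0.29). These Cyp2b, Cyp3a and Gsta genes have near-identical copies, so which of them a probe reads is uncertain. The membrane bile acid receptor gene Gpbar1, the FGF15 co-receptor gene Klb, and the liver genes Cyp7a1, Baat and Abcb11 were not well above background on at least 8 arrays and were not tested.

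The 9 pathway genes named with their differences kept their signs under the other settings, with varying size. Cyp2b12 ran from 0.05 to 0.44, Cyp2b2 from 0.11 to 0.23, Cyp3a18 from 0.20 to 0.52, Ncoa1 from 0.08 to 0.22 and Slco2b1 from 0.18 to 0.37. Of those with a lower value, Cyp7b1 ran from -0.72 to -0.15, Abcg5 from -0.56 to -0.15, Gsta2 from -0.47 to -0.33 and S1pr2 from -0.15 to -0.05. Cyp3a18 was under the unadjusted p of 0.05 in all settings run, and each of the other 8 missed it in at least 1.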

How the data were processed

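RNA from colon mucosa of 17 rats was measured on 1 array per rat. The deposited scanner files hold spot intensities of both dyes with their background, which per the file headers came from version 9.5.1.1 of Agilent Feature Extraction (9.5 in the submitters' processing notes). The deposited series matrix holds log2 values with array medians of 8.76; it served as an alternative only. The sources used here do not say how it was made, and its offset and any centring of genes stay unknown.

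The normexp method (offset 50) was applied to the intensities to correct background, which pulls the ratios of dim probes toward 0, and arrays were normalised by loess (limma 3.58.1, R 4.3.3), with control and flagged spots at weight 0. Flagged spots were then set to missing and 43379 spots were averaged to 41012 probes. Testing took in each probe that was well above background in Cy5 (in at least 50% of its spots) on at least 8 arrays and had a value on at least 10; the rules on spots and on 10 values were added after the design was written. Diets were compared without covariates by limma's lmFit and eBayes, two-sided, with a threshold of 0.05 after Benjamini-Hochberg adjustment over 27083 probes. Single probes also had an exact permutation test over all 24310 assignments of 8 of 17 rats. Rats carry numbers of their own, so groups came from the titles, and rats were taken as separate animals.

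The genes and lists were chosen with earlier results of these data known. The rule named all 10 genes, up to 5 other pathway genes in each direction by unadjusted p, and the 3 genes most like each. Names were updated through RefSeq (GRCr8) for 10726 probes by accession, 5586 by symbol and 3730 by synonym; a gene outside the 10 was read by its brightest tested probe. The relations to marker lists and to Slc51a and Slc51b, the other settings for relations, and the omission of 2 rats together were added after values had been seen; lists with under 3 tested genes (liver, posterior Hox) were left out of them. On simulated data for this comparison with 27083 probes, 98 of 100 probes changed by 0.5 and 100 of 100 changed by 1 were called, with 14 unchanged probes called; simulated probes vary independently and have the spread of randomly drawn probes, unlike Fabp6.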

Additional observations from a re-analysis of the deposited data

Results flagged for a closer look

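The groups of both diets were searched for a rat standing apart, 24 in all, and chance flags about 1 in 20 of them. In Fgf15, low calcium rat 6 had a log2 ratio of -0.10, against -0.02 in the nearest rat of its group, a gap of 0.59 of the group's range. This probe was not well above background in any rat.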

How the results depend on the processing

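No bile acid probe and no other pathway gene passed the adjusted p in any of the 27 other settings run. At the unadjusted p the count of 1 bile acid probe became 2 without background correction, in the Cy5 channel alone, with array weights and with series matrix values, and 0 with median centring; leaving out each rat gave 1 to 2. Over all probes the adjusted count of 0 ran from 0 to 193 with each rat left out (193 without high calcium rat 3, 38 without low calcium rat 16) and was 329 without both, a choice made after seeing the data; the cause was not tested. The unadjusted count of 2381 was 779 with median centring and 3424 with array weights.

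Differences near 0 turned sign: Slc10a2 gave -0.03 with median centring, -0.01 with slide as a block and -0.05 to 0.07 with each rat left out (-0.05 without high calcium rat 10, -0.02 without 17, -0.01 without low calcium rats 1 and 7, -0.00 without 6); Nr1i3 gave -0.00 with median centring; Nr0b2 gave -0.00 in Cy5 alone and -0.01 with array weights; Abcc2 gave 0.04 in the series matrix. The other tested bile acid probes kept their sign, as did the 5 relations recomputed: Slc10a2 with Fabp6 ran from 0.62 to 0.82, Nr1i2 with Abcc3 from 0.60 to 0.96, and Nr1h4 with Slc51a from 0.84 to 0.93, with Slc51b from 0.67 to 0.91 and with epithelial markers from 0.76 to 0.90. No paired analysis was possible because the diets share no replicate numbers. Signal over background limits Slc10a2, Nr1i3 and Abcc2, whose ratios are pulled toward 0, and leaves Fgf15 and Abcb1a unmeasured.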
